A study of Danio rerio with 24 samples.

Results

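Kidney of adult zebrafish (*Danio rerio*) was compared with liver and muscle of fish that had received phosphate-buffered saline (PBS) and no lipopolysaccharide (LPS). The arrays were chosen by their labels alone, treatment PBS and tissue kidney, liver or muscle, which gave 12 of the 24 arrays of the series, with 4 arrays a tissue. The fish were adult wild-type zebrafish of 9 months, with a diet labelled normal although the labelled protocol speaks of a differential diet, and PBS was injected intraperitoneally 3 hours before sampling. Each array held total RNA from tissue pooled from 3 fish, and neither the sex of the fish nor the part of the kidney that was taken is given. The other 12 arrays came from the same tissues 3 hours after 10 μg of LPS, and were used to look at the same genes in pools of other fish and, in 1 alternative fit, together with the PBS arrays.

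The zebrafish kidney is a filtering organ and a blood-forming organ at once. Nephrons filter plasma through the podocytes of the glomerulus and recover sugars, amino acids, phosphate and salts along the proximal and distal tubule, and between the tubules lies a marrow in which stem cells give rise to red cells, thrombocytes, neutrophils, macrophages and lymphocytes. Steroid-producing interrenal cells, chromaffin cells and the corpuscles of Stannius, which secrete stanniocalcin, also lie in or on the organ. In RNA from whole tissue, a larger number of cells of a type and more RNA in each such cell cannot be told apart.

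Expression was measured with a 1-colour oligonucleotide array. The level of a gene is the log2 intensity of its brightest probe minus the 75th percentile of the same array, so a level of 0 lies at that percentile, and levels of different genes were not set against each other. The difference of a gene is its mean kidney level minus the mean of its liver and muscle means, on the log2 scale, and a gene was called when limma gave an adjusted p under 0.05 over all 41799 probes tested. Between 54.6% and 84.8% of the spots of a kidney array were well above background, against 42.5% to 52.4% in liver and 57.3% to 63.5% in muscle. Arrays of kidney correlated with each other at 0.764 to 0.933, those of liver at 0.824 to 0.947 and those of muscle at 0.813 to 0.961, while arrays of different tissues correlated at 0.673 to 0.892 (Pearson's r across probes, a description). With 4 arrays a tissue, precision was set by the spread between pools.

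Kidney replicate 2 carried liver transcripts at a level near that of liver itself. The log2 summed level of 19 plasma protein and other liver genes was 3.52, 10.23, 7.07 and 4.74 on kidney replicates 1 to 4, and ran from 8.92 to 11.04 in PBS liver and from 6.09 to 8.99 in PBS muscle. *fgb*, the fibrinogen beta chain, had levels of -0.96, 7.45, 4.64 and 0.01 on the 4 kidney arrays and of 6.71, 8.28, 7.44 and 8.34 on the liver arrays. *serpina1*, the alpha-1 antitrypsin gene, had levels of -2.63, 8.19, 5.22 and 0.27 in kidney and of 6.77, 8.74 and 7.78 on the 3 liver arrays with a value. Replicate 2 thus lay inside the liver range for both genes on the log scale, and replicate 3 was the next highest, while replicates 1 and 4 stood lower.

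On a linear scale, the excess of a liver gene on a kidney array over the mean of the other 3 kidney arrays was expressed as a percentage of its mean in liver. Over 21 liver genes well above background on every liver array, the median excess on kidney replicate 2 was 69.3%, with a range from 19.9% to 143%, and all 21 genes were in excess. The medians on replicates 1, 3 and 4 were -25.4%, -19.0% and -25.0%. Exocrine pancreas genes, whose log2 summed level in PBS liver was 9.37 to 10.98, were not in excess on replicate 2 as a list. Of 17 such genes 3 were in excess there, with a median of -0.38% of the liver mean and a range from -1.24% to 60.7%. The vitellogenins, yolk protein precursors made by the liver, showed the same pattern and were picked after their values were seen: *vtg2* had levels of -1.41, 8.02, -0.68 and -0.48 in kidney, against 6.80, 7.88, 8.12 and 8.40 in liver. Of 11494 genes with a value on all 12 arrays, 113 lay at least 3 log2 units above the other 3 kidney arrays on replicate 2, and 103 of these had a higher mean in liver than in muscle. The kidney genes described below were present on the same array, which had the second highest log2 summed level of 108 nephron genes, 9.47, against 8.93, 7.75 and 9.71 on replicates 1, 3 and 4. That sum ran from 7.34 to 9.11 in liver and from 7.42 to 7.95 in muscle, so replicates 1 and 3 overlapped liver and replicate 3 overlapped muscle. Liver transcripts add to the sum, so on replicate 2 it is no measure of kidney RNA alone. Their part in it was not tested.

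**Figure D1:**
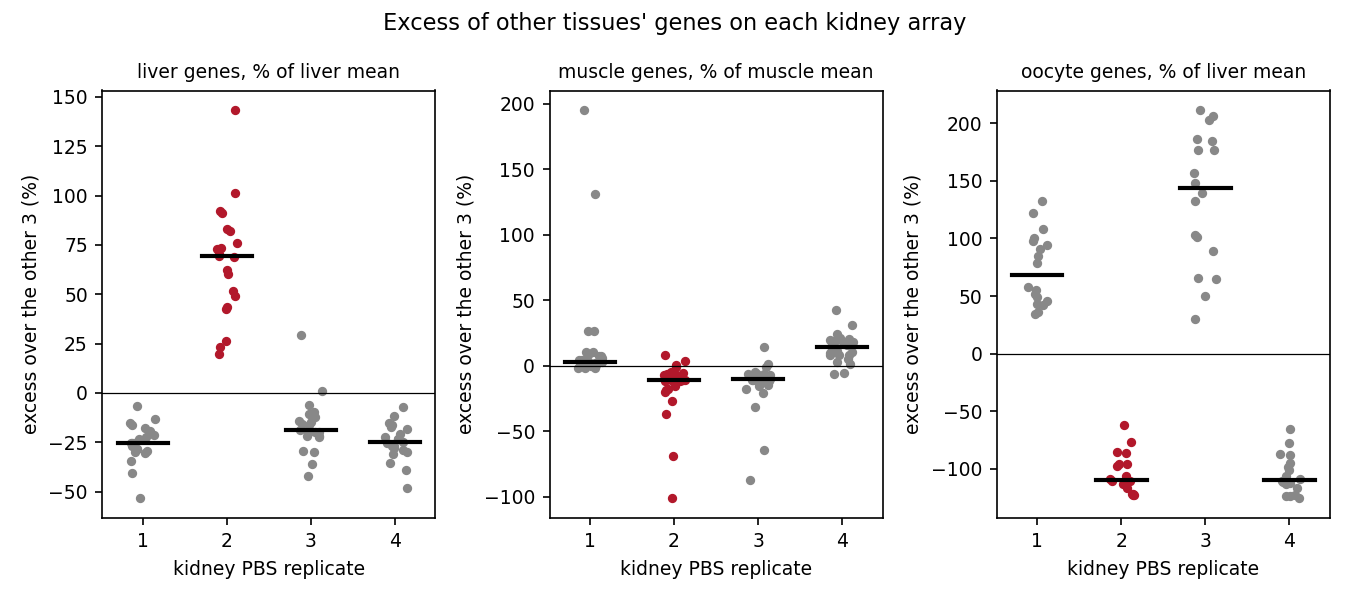
Excess of liver, skeletal muscle and oocyte genes on each kidney PBS array over the mean of the other 3 kidney arrays (points: genes, bars: medians, red: replicate 2). It is a percentage of the mean in PBS muscle for muscle genes, and in PBS liver for liver and oocyte genes, since no oocyte sample was measured. All 21 liver genes lie above 0 on replicate 2, with a median of 69.3%, and the oocyte genes lie above 0 on replicates 1 and 3.

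Other tissues were seen on other kidney arrays. The log2 summed level of the oocyte list was 10.21, 5.18, 10.16 and 4.74 on kidney replicates 1 to 4, and *btg4*, an oocyte gene, had levels of 3.79, -4.38, 4.49 and -4.92. In PBS liver and muscle the same list was also highest on replicates 1 and 3, from 7.75 to 10.27 and from 8.03 to 11.59. The skeletal muscle list summed to 8.96, 6.60, 6.63 and 9.55 in kidney, against 9.90 to 12.09 in muscle and 4.40 to 5.81 in liver. The median excess of 28 muscle genes was 14.2% of the muscle mean on kidney replicate 4, 3.11% on replicate 1, and -10.9% and -10.5% on replicates 2 and 3. The negative values again rest on means that include the arrays in excess. The counts over all genes are therefore also given without kidney replicate 2, as are list counts that moved without it or without replicates 1 and 3. Their part in the differences was not tested beyond that.

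**Figure D2:**
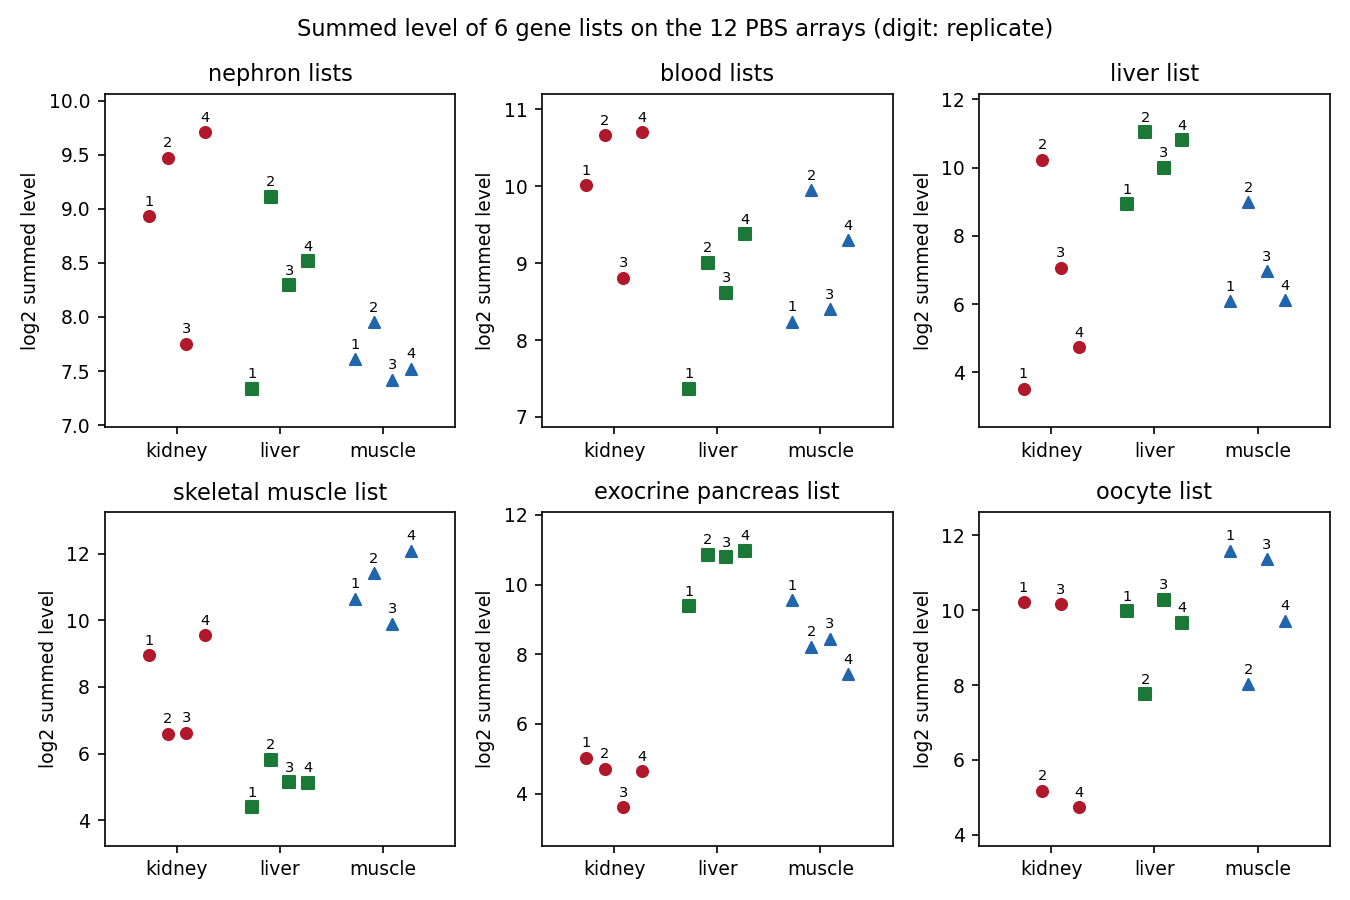
Log2 summed level of 6 gene lists on the 12 PBS arrays, by tissue, with the replicate number above each point. The liver list on kidney replicate 2 (10.23) lies within the liver range of 8.92 to 11.04, and the oocyte list is about as high on kidney replicates 1 and 3 (10.21 and 10.16) as in liver.

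Of 12570 genes tested, 374 were called higher in kidney than the mean of liver and muscle (2.98%) and 318 lower (2.53%). Kidney exceeded liver for 355 genes (2.82%) and muscle for 441 (3.51%), and 143 genes exceeded both (1.14%). In 248 of 11494 genes every kidney array lay above the 8 others (2.16%), and in 82 every kidney array lay below them (0.713%). With the replicate number as a block, limma called 955 higher, 1433 lower, 384 higher than both tissues, 992 higher than liver and 885 higher than muscle. All 374, 318 and 143 genes of the first fit were among them. Without kidney replicate 2 the counts were 225 higher, 396 lower, 94 higher than both, 259 higher than liver and 245 higher than muscle, and 217 of the 374 genes remained called. Centring each array on its 50th percentile changed the split to 607 higher and 1058 lower, and the median difference of all probes was -0.13 at the 75th percentile, -0.23 at the 50th, 0.01 after quantile normalisation and -0.30 after normexp background correction.

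Of the 143 genes higher than both tissues, 26 belonged to the nephron lists, 18 to the blood lists and 99 to no list. For 76 of them no liver array was well above background, and for 28 no liver or muscle array was. For such genes the fold is a lower bound: the mean kidney level was set against the mean, over the arrays of the dim tissue, of the higher of the gene's own level and the lowest level among probes well above background there. The log2 differences of such genes were taken from the dim signal as measured, so their exact size, and the order of genes ranked by it, rest on values not well above background. Of the 143 genes, 114 also had all 4 kidney arrays above the 8 others and well above background. In 111 of these 114 kidney replicate 3 was the lowest kidney array, against 5725 of 12570 over all genes. Of the kidney arrays, replicate 3 had the most spots well above background, 84.8%. Replicate 4 was the highest kidney array in 82 of the 114 and replicate 2 in 28, and muscle replicate 4 was the highest muscle array for 63. Kidney replicates 1 to 3 were scanned on 1 day with no other PBS array, whereas replicate 4 was scanned on the day of the liver arrays. Within that day the 143 genes differed by a median of 4.90 between kidney replicate 4 and the mean of the liver arrays, against -0.03 over 12491 genes. This is a description only, since the same arrays chose the genes and it rests on 1 kidney array. Muscle was scanned on other days, so kidney against muscle and scan day cannot be told apart. No slide held PBS arrays of different tissues, so tissue and slide cannot be told apart in any contrast, also not in kidney against liver.

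**Figure D3:**
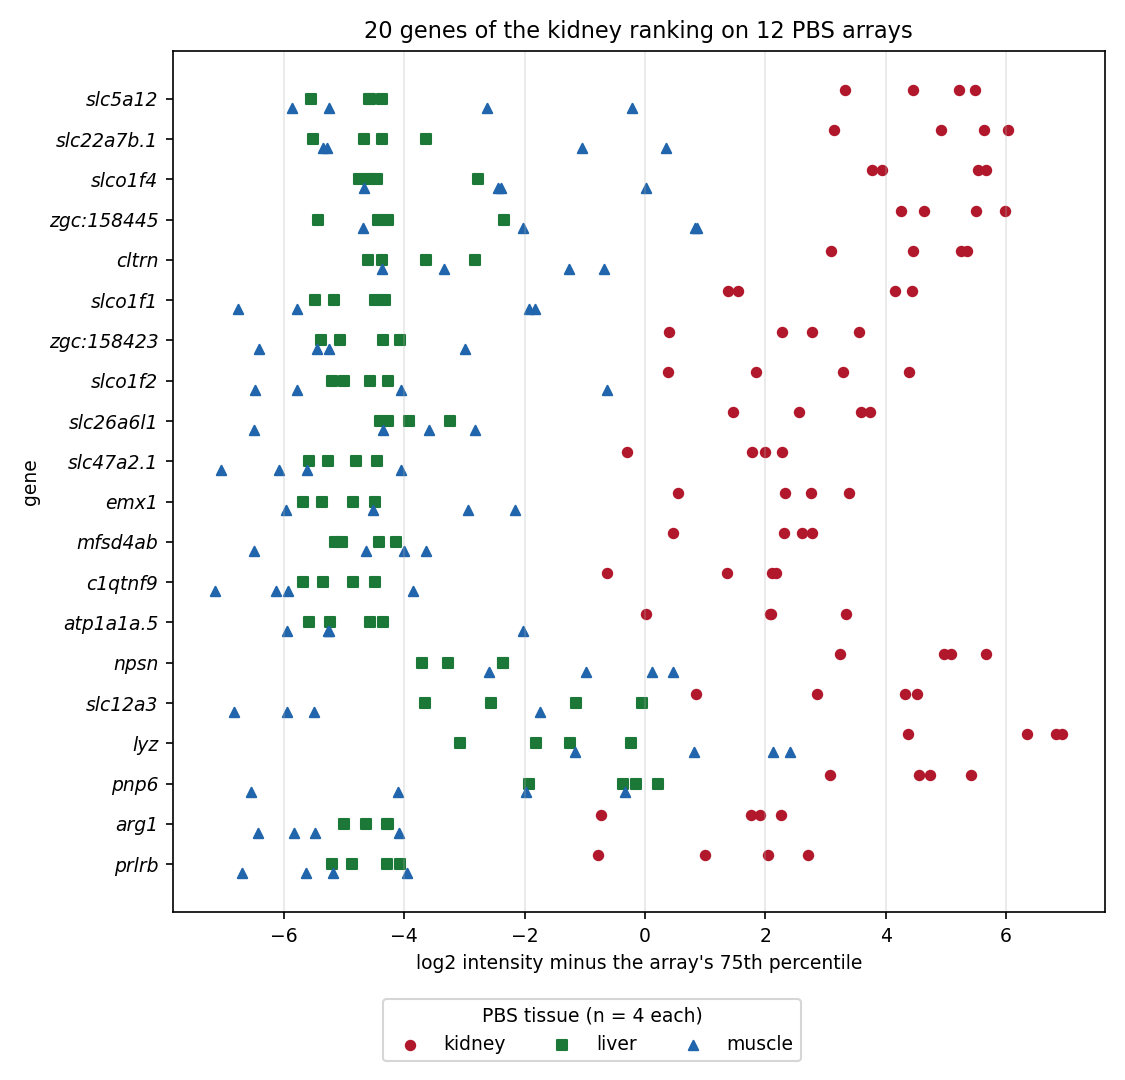
Levels of the 20 genes with the largest differences among those higher than liver and muscle on each of the 12 PBS arrays (x axis: log2 intensity minus the array's 75th percentile, 4 points a tissue). For each gene the 4 kidney points lie above the 8 others, by the rule that chose them.

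Proximal tubule transporters led the ranking. *slc5a12*, a sodium-coupled carrier of lactate and other monocarboxylates, had levels of 4.45, 5.21, 3.32 and 5.48 on kidney replicates 1 to 4, of -5.56, -4.38, -4.59 and -4.57 in liver and of -2.62, -5.25, -5.87 and -0.22 in muscle. No liver array and 2 muscle arrays were above background, and the groups did not overlap. Its difference was 8.75 ± 0.88 (SE, limma adjusted p = 0.000157), at least 169-fold over liver. *cltrn*, the collectrin that carries amino acid transporters to the brush border, had levels of 4.45, 5.25, 3.09 and 5.35 in kidney, of -2.82, -4.37, -4.61 and -3.64 in liver and of -1.26, -3.33, -4.37 and -0.68 in muscle. Every kidney array again stood apart, and the difference was 7.67 ± 0.70 (limma adjusted p = 0.000122). *slc5a2*, the kidney glucose carrier SGLT2, was 2.68, 3.29, 1.51 and 3.73 in kidney against a mean of -3.07 ± 0.79 in liver and -3.52 ± 1.59 in muscle (SD, n = 4). Its difference was 6.09 ± 0.66 (limma adjusted p = 0.000237). *lrp2a*, the endocytic receptor megalin, had levels of 0.47, 0.97, -1.14 and 1.18 in kidney and was at least 8.92-fold higher than in liver, where no array was above background (difference 4.98 ± 0.61, limma adjusted p = 0.00053).

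Of 35 proximal tubule genes tested, 14 were called higher and 2 lower (4 without kidney replicate 2), against 2.98% and 2.53% of all genes, and 9 were higher than both tissues. The median difference of the 35 genes was 2.23, against -0.09 over all genes, and the called genes ranged from 3.02 to 8.75. Among them, *slc26a6l1*, a gene of the anion exchanger family, differed by 6.97, the sulphate carrier *slc26a1* by 4.88, the dicarboxylate carrier *slc13a3* by 4.87, the neutral amino acid carrier *slc6a18* by 4.30 and the phosphate carrier *slc20a1a* by 3.80. *slc20a1a*, which marks the proximal tubule in the zebrafish embryo, had a mean level of 3.80 ± 1.03 in kidney (SD, n = 4) and levels of -2.03, 0.93, 1.27 and 1.25 in liver and -1.47, 1.01, -1.23 and 0.26 in muscle. Every kidney array lay above all others, though the liver arrays spread over more than 3 log2 units. The log2 summed level of 33 of the 35 genes ran from 6.22 to 8.30 in kidney, inside the liver range of 5.90 to 8.43. In muscle it ran from 3.76 to 5.03. Some members were shared with liver. *slc22a6l* (organic anion) and *slc22a2* (organic cation) were called through muscle, and kidney minus liver was 2.09 (limma adjusted p = 0.217) and 2.19 (limma adjusted p = 0.072). *slc5a1*, the glucose carrier SGLT1, was not called, with a mean of 2.89 in kidney, 4.69 in liver and -3.36 in muscle. The members called lower were *mep1a.1*, a brush border metalloprotease, and the aquaporin *aqp8a.1* (-7.04 and -2.83).

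The largest differences outside the lists were also those of transporters. *slc22a7b.1*, an organic anion carrier, had levels of 4.93, 5.64, 3.15 and 6.03 in kidney, -5.51, -4.37, -4.67 and -3.63 in liver and -1.05, -5.29, -5.35 and 0.35 in muscle. No liver array was above background, so that it was at least 211-fold over liver (measured difference 8.62 ± 1.02, limma adjusted p = 0.000416). Its 4 probes differed by 6.95 to 8.62. Of 8 *slco* genes tested, which encode organic anion transporting polypeptides, the 4 called were *slco1f1*, *slco1f2*, *slco1f3* and *slco1f4*, at 7.35, 6.98, 3.75 and 7.99. These 4 are close copies, whose probes may share signal, so that the values of the single genes are uncertain. *slc47a2.1*, an exporter of organic cations and toxins, was 1.79, 2.28, -0.30 and 1.99 in kidney, and no array of liver or muscle was above background (at least 18.7-fold and 48.0-fold). Over all 274 *slc* genes, 32 were called higher and 3 lower, against 2.98% and 2.53% of all genes, with a median of -0.01. A pair of genes with no descriptive name, *zgc:158445* and *zgc:158423*, stood beside them at 7.78 and 7.12.

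In the glomerulus list, *ren*, which encodes renin, had levels of 0.87, 1.70, -0.33 and 1.27 in kidney, and no array of liver or muscle was above background. It was at least 12.7-fold over liver and 32.6-fold over muscle (difference 5.93 ± 0.49, limma adjusted p = 0.000122). *nphs1*, nephrin, was dim even in kidney, at -2.68, -2.16, -3.04 and -2.67, with 3 of 4 arrays above background and a difference of 1.65. With *ptpro*, a podocyte phosphatase that was 6.96-fold over liver, they were among the 4 of 14 tested genes called higher, and none was lower. Over all genes 2.98% were called higher, and the list's median difference was 0.68. *podxl*, *wt1a* and *wt1b* differed by 0.28, -0.19 and 1.13 and were not called. Without kidney replicate 2, *nphs1* and *ptpro* lost their calls. Of 24 alternatives, they lost it in 4 and 8.

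Of 21 transcription factors that pattern the nephron, 7 were called higher, against 2.98% of all genes, and none lower, with a median of 1.26. *emx1*, expressed in distal segments of the zebrafish pronephros, had levels of 2.33, 2.76, 0.55 and 3.39 in kidney, -5.68, -4.49, -4.85 and -5.36 in liver and -2.93, -5.97, -4.52 and -2.16 in muscle. Kidney did not overlap the others (difference 6.75 ± 0.70, limma adjusted p = 0.000176), and no liver array was above background. *pax2a*, required for nephron formation, was 0.95, 1.81, -0.58 and 1.89 in kidney and differed by 5.45 ± 0.53. *hnf1bb*, a regulator of tubule segmentation, was measured above background on all 12 arrays, with means of 2.57 ± 0.98 in kidney, -1.42 ± 0.52 in liver and -2.61 ± 0.58 in muscle (SD, n = 4). Its difference was 4.59 (limma adjusted p = 0.00015). The related *hnf1ba* was 4.07 in kidney but 2.01 in liver, and its call rested on muscle (kidney minus liver 2.06, limma adjusted p = 0.0845). Together with *tfap2b* (4.60), *irx3b* (3.27) and *irx1a* (3.26), these made up the 7. *hnf4a* differed by 1.26 and was not called. Outside the list, *pou3f3b* and *pou3f3a*, of a family that in mouse acts in the distal nephron, were picked after their values were seen and differed by 5.61 and 4.65.

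Distal tubule genes included the thiazide-sensitive sodium chloride carrier *slc12a3*, with levels of 2.86, 4.33, 0.85 and 4.52 in kidney, -3.66, -0.05, -2.55 and -1.14 in liver and -5.49, -5.95, -6.83 and -1.74 in muscle. The lowest kidney array stood within 1 log2 unit of the highest liver array, and the difference was 6.57 (limma adjusted p = 0.00245). *kcnj1a.1*, a potassium channel of the ROMK family, had a mean level of 1.26 ± 1.22 in kidney (SD, n = 4), at least 16.5-fold higher than in liver. Its near copies *kcnj1a.2* and *kcnj1a.5* differed by 5.45 and 5.12, and their probes may share signal. *clcnk*, the chloride channel of the same tubule cells, was 2.52, 3.42, 0.64 and 3.56 in kidney, with a mean of -2.01 over 3 liver arrays, since the spot on liver replicate 2 was marked as an outlier and left out (difference 3.99 ± 0.61). *cdh17*, a cadherin of zebrafish kidney tubules, had levels of 4.70, 5.46, 3.12 and 5.73 in kidney and a mean of 3.84 ± 0.90 in liver (SD, n = 4), so those groups overlapped and the call came through muscle (kidney minus liver 0.92, limma adjusted p = 0.632). In all, 9 of 22 genes were called higher and *cldn19*, a claudin, lower (-2.68), with a median of 1.70. Over all genes 2.98% were called higher and 2.53% lower. Of 9 *atp1a* genes, which encode alpha subunits of the sodium pump, 4 were higher, led by *atp1a1a.5* at 6.66. These too are close copies.

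Genes of motile cilia, which drive fluid along zebrafish tubules, included *foxj1a*, the regulator of motile ciliogenesis. Its levels were 0.52, 0.50, -0.90 and 1.39 in kidney, -5.59, -4.39, -4.63 and -5.26 in liver and -2.73, -2.76, -3.50 and -2.46 in muscle. The 3 tissues did not overlap, with a difference of 4.30 ± 0.44 (limma adjusted p = 0.000176). *foxj1b* (3.69), *capsla* (2.79) and the tektin *tekt4* (2.23) were also called, 4 of 16 tested, against 2.98% of all genes. None was lower, and the median was 0.67. The log2 summed level of the list ran from 2.15 to 3.36 in kidney, inside the muscle range of 1.37 to 3.72, and from 0.40 to 1.51 in liver. Without kidney replicate 2, 3 were called. *spag6*, of the ciliary axoneme, differed by 2.33 and was not called. Of 14 acid-base genes only the anion exchanger *slc4a2a* was called higher (4.84), against 2.98% of all genes, and the list's median was -0.30. The carbonic anhydrase *ca2* was near equal in the 3 tissues, at 3.29, 3.69 and 3.36.

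**Figure D4:**
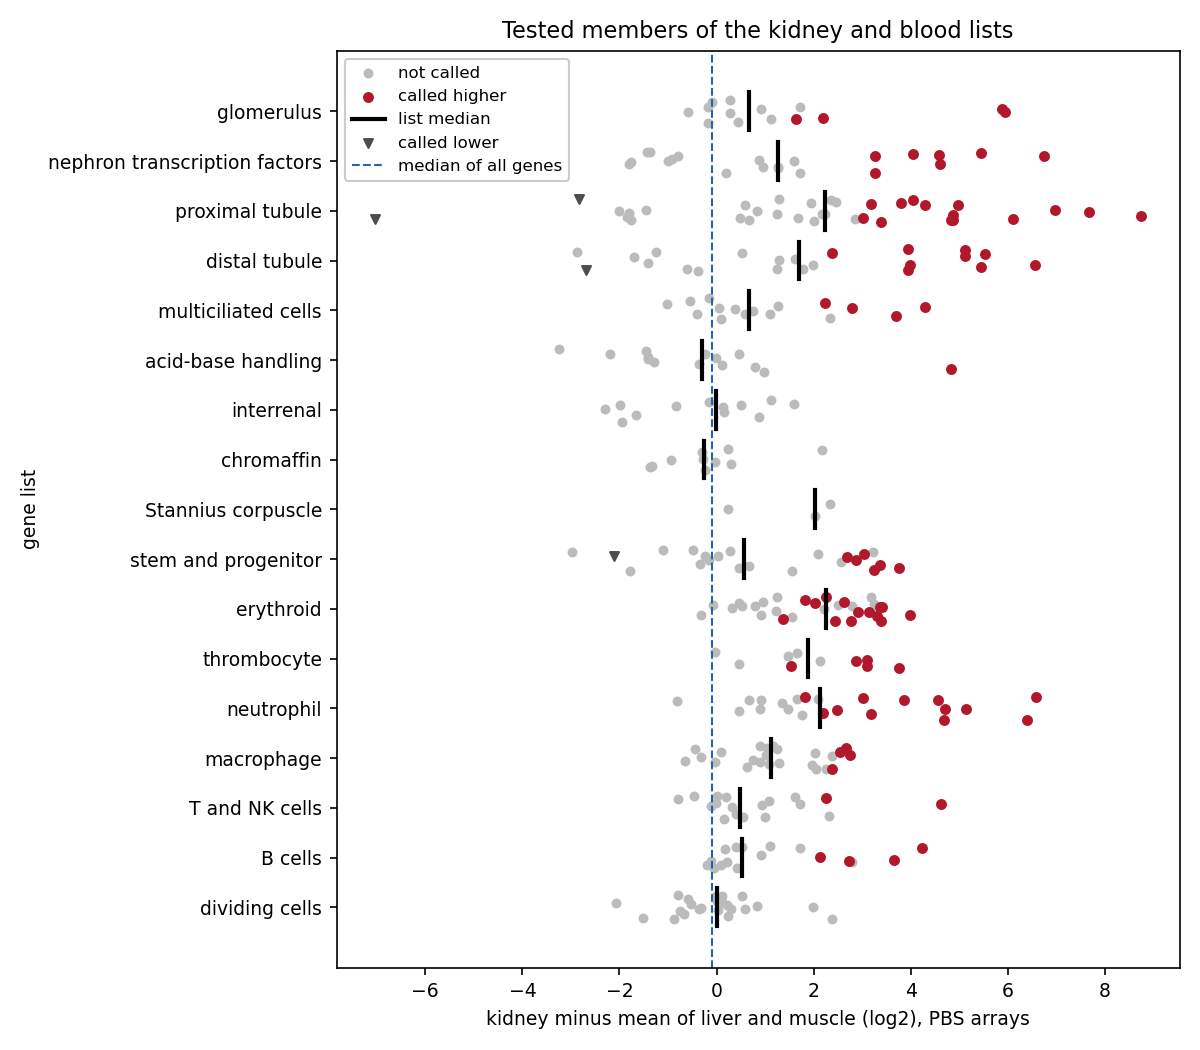
Difference between kidney and the mean of liver and muscle (x axis, log2) for every tested member of 17 gene lists, with called members coloured, list medians as bars and the median of all genes as a dashed line. The erythroid, proximal tubule and neutrophil lists have medians of 2.26, 2.23 and 2.14, and the interrenal and chromaffin lists lie at -0.01 and -0.26.

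In the marrow, neutrophil genes gave the largest differences. *npsn*, the astacin protease nephrosin, had levels of 4.97, 5.09, 3.25 and 5.68 in kidney, -3.28, -3.70, -2.36 and -2.35 in liver and 0.12, -0.98, -2.58 and 0.47 in muscle. *lyz*, lysozyme, had levels of 6.34, 6.84, 4.37 and 6.94 in kidney, -3.07, -1.24, -1.80 and -0.23 in liver and 2.13, 0.82, -1.16 and 2.42 in muscle. For both genes every kidney array lay above every other array, and muscle exceeded liver on average. The differences were 6.58 ± 0.62 and 6.39 ± 0.75 (limma adjusted p = 0.000127 and 0.000404). *mpx*, myeloperoxidase, was 2.79, 3.71, 0.56 and 3.33 in kidney and -3.07, -0.79, 0.35 and -2.23 in liver. It was called against the mean (5.13), but kidney minus liver had a limma adjusted p of 0.0516, and its 4 probes ran from -1.48 to 5.13. *cebp1*, a myeloid transcription factor (4.70), *alox5ap*, of leukotriene synthesis (4.69), and *mmp9*, gelatinase B (3.86), were higher than both tissues. Of 22 genes, 12 were called higher, against 2.98% of all genes, and none lower, with a median of 2.14. Higher than both were 8, against 1.14% of all genes. The log2 summed level of the list ran from 6.24 to 8.80 in kidney and overlapped muscle, at 6.72 to 8.65. Kidney replicate 3 was the lowest kidney array for all 22, against 5725 of 12570 over all genes. Without replicate 2, 9 were called, and without replicates 1 and 3, 15, against 225 and 489 higher over all genes.

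Of 31 erythroid genes 14 were called higher, against 2.98% of all genes, and none lower, with a median of 2.26. *slc4a1a*, the red cell anion exchanger band 3, had levels of 3.85, 4.46, 2.01 and 4.63 in kidney, -2.53, 1.04, 0.71 and 1.78 in liver and -1.14, 0.21, -2.58 and 0.49 in muscle (difference 3.99 ± 0.84, limma adjusted p = 0.0175). *hbaa2*, an adult alpha globin, was 7.14, 7.92, 6.23 and 7.88 in kidney and 1.23, 3.11, 5.48 and 5.82 in liver. Liver replicates 3 and 4 stood less than 1 log2 unit below the lowest kidney array, and the difference was 3.38 ± 0.76 (limma adjusted p = 0.023). Globin genes are close copies, so single values are uncertain. *hbba1* was not called, at 7.13 in kidney, 5.86 in liver and 6.60 in muscle. *tfr1a*, the transferrin receptor, and the heme synthesis genes *hmbsb* and *urod* differed by 3.36, 2.26 and 1.81 and were each higher than both tissues. *gata1a*, the erythroid transcription factor, was 0.04, 0.51, -1.66 and 1.05 in kidney, and it just missed the call (3.28 ± 0.96, limma adjusted p = 0.0709). Only 4 of the 31 were higher than both, against 1.14% of all genes. Without kidney replicate 2 the 14 became 4, while the 374 over all genes became 225. *hbaa2*, *hbba2*, *alas2*, *rhag* and *cahz* were among those lost. Their calls were lost elsewhere too. Of 24 alternatives, *hbba2* lost its call in 14, *alas2* in 13, *rhag* and *cahz* in 11 each and *hbaa2* in 3.

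Of 22 stem and progenitor genes 6 were called higher, against 2.98% of all genes. *runx1*, required for blood stem cells, had levels of -1.29, -0.77, -3.24 and -0.43 in kidney, with no liver array and 2 muscle arrays above background. Kidney replicate 3 overlapped muscle, and the difference was 3.25 ± 0.64 (limma adjusted p = 0.0121). *myb* was 0.39, 0.73, -1.65 and 0.82 in kidney, at least 7.25-fold over liver, with 2 muscle arrays, at -0.81 and -0.88, above kidney replicate 3. *itga2b*, the integrin CD41 of progenitors and thrombocytes, differed by 3.75 and *mpl*, the thrombopoietin receptor, by 2.88. *hoxa9a*, a stem cell list member above background on no array, was called lower (-2.11), the list median was 0.57, and *tal1* was not called at 3.22 (limma adjusted p = 0.0608). Of 10 thrombocyte genes 5 were higher, against the same 2.98%, *fermt3b*, of integrin activation, at 3.09 among them, with a median of 1.89. One of the 5, *bin2a*, was as high in liver (3.37) as in kidney (3.47). Without kidney replicate 2, 4 progenitor and 3 thrombocyte genes were called.

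Of 24 macrophage genes, *spi1b*, *havcr1*, *irf8* and *coro1a* were called, between 2.38 and 2.74, against 2.98% of all genes called higher. The list's median was 1.12, and none was higher than both tissues. All 4 lost the call without kidney replicate 2, but not only there. Of 24 alternatives, *spi1b* lost its call in 14, *coro1a* in 12, *irf8* in 8 and *havcr1* in 5. Without replicates 1 and 3, 7 genes were called, against 489 higher over all genes. *mpeg1.1*, perforin of macrophages, was 1.98, 2.37, -0.06 and 2.87 in kidney and -0.60, 2.15, 0.99 and 1.41 in liver, which overlapped (difference 1.16, limma adjusted p = 0.324). Among 18 T and NK genes, 2 were called higher, against the same 2.98%. *nkl.4*, an NK-lysin of cytotoxic cells, had levels of -0.09, 1.66, -1.31 and -0.25 in kidney, above background on none of the liver arrays and on 1 muscle array, and differed by 4.62 ± 0.55 (limma adjusted p = 0.000425). *il7r* was called through liver only, with means of 4.13 in kidney and 3.72 in muscle. *lck* and *cd8a* differed by 0.40 and 0.99 and were not called.

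Of 17 B cell genes 4 were called higher, against 2.98% of all genes, with a median of 0.53, and 3 without kidney replicate 2. *pax5*, the B lineage factor, was -0.61, -0.18, -2.32 and 0.00 in kidney, -2.63, -4.29, -4.51 and -4.25 in liver and -4.50, -5.14, -6.75 and -3.38 in muscle. All kidney arrays stood above the others, if narrowly for replicate 3 (3.65 ± 0.65, limma adjusted p = 0.00632). *cd37*, a leukocyte tetraspanin, was at least 7.63-fold over liver (4.23), and *blnk* and *cxcr4a* differed by 2.72 and 2.12. *rag1*, of receptor rearrangement, had levels of -4.54, -4.60, -6.50 and -4.55 in kidney, above background on 2 arrays. Its partner *rag2* had a mean of -3.82 and was not called either (0.42). Of 23 genes of dividing cells none was called by limma, and the median was 0.01. An unadjusted p under 0.05 was found for 2 of them, against 2786 of 12570 over all genes. With the replicate block 2 were called higher and 2 lower, against 955 and 1433 of 12570 over all genes. Their summed level was 7.75, 5.60, 8.45 and 5.72 in kidney, highest on the replicates that were high in the oocyte list.

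The nephron lists together held 39 of 122 genes called higher and 3 lower, against 2.98% and 2.53% of all genes, with a median of 1.19. Without kidney replicate 2, 13 proximal, 8 distal and 7 transcription factor genes were called higher, against 225 over all genes. The blood lists held 45 of 141 higher and 1 lower, with a median of 1.46. With the replicate block, 10 progenitor, 23 erythroid, 10 macrophage and 5 T and NK genes were called higher. With that block 955 of 12570 genes were higher over all. Of the 99 genes in no list, the following were picked after their values were seen. *plek*, *lcp1*, *nckap1l* and *parvg* of the leukocyte cytoskeleton differed by 2.96, 3.12, 2.35 and 3.11, and the endothelial scavenger receptor *stab1* and the selectin *sele* by 3.86 and 3.82. *cxcl12a*, the chemokine that retains stem cells in the marrow, is not one of the 99 and was also picked after its values were seen. Its levels were 5.96, 6.71, 4.17 and 6.68 in kidney against a mean of 0.62 ± 1.02 in liver (SD, n = 4). It overlapped muscle, at 2.89, 4.52, 2.48 and 4.09, and was called against the mean (3.82) and against liver, not against muscle (limma adjusted p = 0.063). *hoxb8a*, a posterior patterning gene picked the same way, had levels of 2.82, 3.74, 1.11 and 3.59 and was at least 48.5-fold over liver (6.19). Of 46 *hox* genes 5 were higher, all of the *hoxb* cluster, and 7 lower, against 2.98% and 2.53% of all genes. Only 17 of the 46 were above background on all 4 kidney arrays, and 30 were so on no liver array. Their differences, also those of genes called lower, thus rest in part on dim signal. *mb*, myoglobin, also picked so, was higher in kidney, at 5.98, 6.90, 4.46 and 7.17, than in muscle, at 1.51, 2.15, -1.49 and 4.21, with 4 probes between 3.67 and 5.19.

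Some defining endocrine genes of the organ were high on kidney replicate 4 alone. *star*, which brings cholesterol to the steroid-producing enzymes, had levels of -2.86, -6.29, -4.72 and 4.73 on kidney replicates 1 to 4, *stc1l*, a stanniocalcin gene, had -4.61, -4.79, -6.73 and 4.39, and *cyp11c1*, of cortisol synthesis, had -5.09, -3.72, -5.26 and 1.17. Replicate 4 was high in these 3 genes and the others were low, while *star* also reached 1.17 and 0.40 on muscle replicates 2 and 4. None of the 12 interrenal, 10 chromaffin or 3 Stannius genes was called by limma. Of these 2, 2 and 1 had an unadjusted p under 0.05, against 2786 of 12570 over all genes. With the replicate block 2 interrenal genes were called lower, 1 chromaffin gene higher and 1 Stannius gene higher. Over all genes that block called 1433 of 12570 lower and 955 higher. On kidney replicates 1 to 4 the log2 summed levels were 4.94, 5.41, 4.80 and 5.82 for 8 interrenal genes. They were 3.57, 4.52, 2.72 and 4.04 for 8 chromaffin genes and -1.45, 0.29, -1.53 and 0.48 for 2 Stannius genes. Here, as for every list, only genes with a value on all 24 arrays were summed, so the Stannius sum left out *stc1l*. Among kidney arrays the sums were highest on replicate 4 for interrenal and Stannius genes and on replicate 2 for chromaffin genes. In PBS muscle the interrenal, chromaffin and Stannius sums ran from 5.40 to 5.78, 3.67 to 5.47 and -1.21 to 1.03, overlapping kidney in each list. In PBS liver they ran from 4.60 to 5.03, 2.53 to 3.89 and -4.56 to -2.68, and only the Stannius sum stood apart from kidney. *th*, of catecholamine synthesis, was -2.78, -3.21, -5.19 and -0.80 in kidney and also highest on replicate 4.

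Of the 318 genes lower in kidney, 25 belonged to the exocrine pancreas, gut and skin, liver or muscle lists. Of 18 exocrine pancreas genes 16 were called lower, against 2.53% of all genes, between -6.44 and -4.74, with a list median of -5.52. *prss1*, trypsin, had levels of 2.71, 0.57, 1.14 and 2.48 in kidney, from 6.76 to 8.61 in liver and 7.35, 5.93, 6.38 and 5.40 in muscle. Kidney lay below every other array, by 5.43 on average (limma adjusted p = 0.00015), and liver and muscle both held the transcript. The summed level of the list was 3.61 to 5.03 in kidney, 9.37 to 10.98 in liver and 7.42 to 9.55 in muscle. Among called genes whose 4 kidney arrays all lay below the 8 others, the largest falls were those of *mep1a.1* (-7.04), *si:ch211-240l19.6* (-6.84), *ctrb.3*, a chymotrypsinogen (-6.80), *gip*, an intestinal hormone gene (-6.64), and *si:ch211-240l19.8* (-6.48). Gut and skin genes were lower in 8 of 15, such as *fabp2*, an intestinal fatty acid carrier, at -2.18, -0.71, -3.82 and -1.64 in kidney against 5.86, 8.25, 7.63 and 7.62 in liver, and *fabp6*, which differed by -8.16. *fabp2* overlapped muscle, and neither was called against muscle. Without kidney replicates 1 and 3, 5 of the 15 were called lower, against 433 over all genes. Without replicate 2, 12 were called lower, against 396 over all genes, and with the replicate block 14. With that block 1433 of 12570 genes were lower over all. Exocrine pancreas, gut and skin are no part of the 3 tissues as labelled, and the part of their RNA in these calls was not tested.

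The liver list itself gave 0 of 27 genes called lower by limma, with a median difference of -3.22. In this list 18 of 27 genes had an unadjusted p under 0.05, against 2786 of 12570 over all genes. Without kidney replicate 2, the kidney array highest in this list, 17 were called lower, against 396 over all genes. With the replicate block 14 were called lower, against 1433 over all genes. *uroc1*, urocanase of histidine breakdown, was the 1 gene of that list called higher (3.77), with levels of -0.17, 0.33, -1.42 and 1.07 in kidney and -2.83, -1.20, -2.21 and -0.67 in liver, above background on no muscle array. Of 29 muscle genes only *pgam2*, a phosphoglycerate mutase, was called lower (-3.48). *pvalb2*, a fast muscle parvalbumin, was 6.82, 0.73, 0.43 and 7.55 in kidney, above background on no liver array, and 8.77, 8.82, 8.13 and 9.58 in muscle. None of the 25 oocyte genes was called by limma, with 2 at an unadjusted p under 0.05 and a median of -2.24. With the replicate block 19 were called lower, against 1433 over all genes. Without kidney replicates 1 and 3, a setting added after the data were seen, 24 were called lower, against 433 over all genes. Those were the kidney arrays high in this list, and the liver and muscle arrays of the same numbers stayed in. The count of 24 thus follows from the choice of arrays and is no separate result. None of 13 testis genes was called by limma, and 3 were called lower without kidney replicates 1 and 3, against the same 433. An unadjusted p under 0.05 was found for 4 of the 13, to be set against the same 2786 of 12570.

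The same genes were looked up on the 12 LPS arrays, from other pools of fish. There 774 genes were called higher in kidney than the mean of liver and muscle (6.16%). Of the 374 genes called on the PBS arrays 303 were in both lists, which is 81.0% of the PBS list and 39.1% of the LPS list, and 372 of 373 with a value had a positive difference. Of the 143 genes higher than both tissues, 137 were called higher on the LPS arrays. *slc5a12* differed by 9.28 ± 0.65 there and by 8.75 ± 0.88 on the PBS arrays, *mfsd4ab* by 8.37 ± 0.40 and 6.73 ± 0.58, *lyz* by 5.03 ± 0.51 and 6.39 ± 0.75, and *mmp9* by 1.71 ± 0.48 and 3.86 ± 0.51. The test of the difference between PBS and LPS in this contrast called no gene after adjustment, and 780 of 12570 had an unadjusted p under 0.05 (limma). The liver list was high on kidney replicate 2 here too, at 9.83, against 5.10 to 5.32 on the other LPS kidney arrays. LPS liver replicate 2 was the lowest liver array, at 6.90 against 11.01 to 11.71, and LPS muscle replicate 4 was at 9.50 against 4.89 to 5.63.

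**Figure D5:**
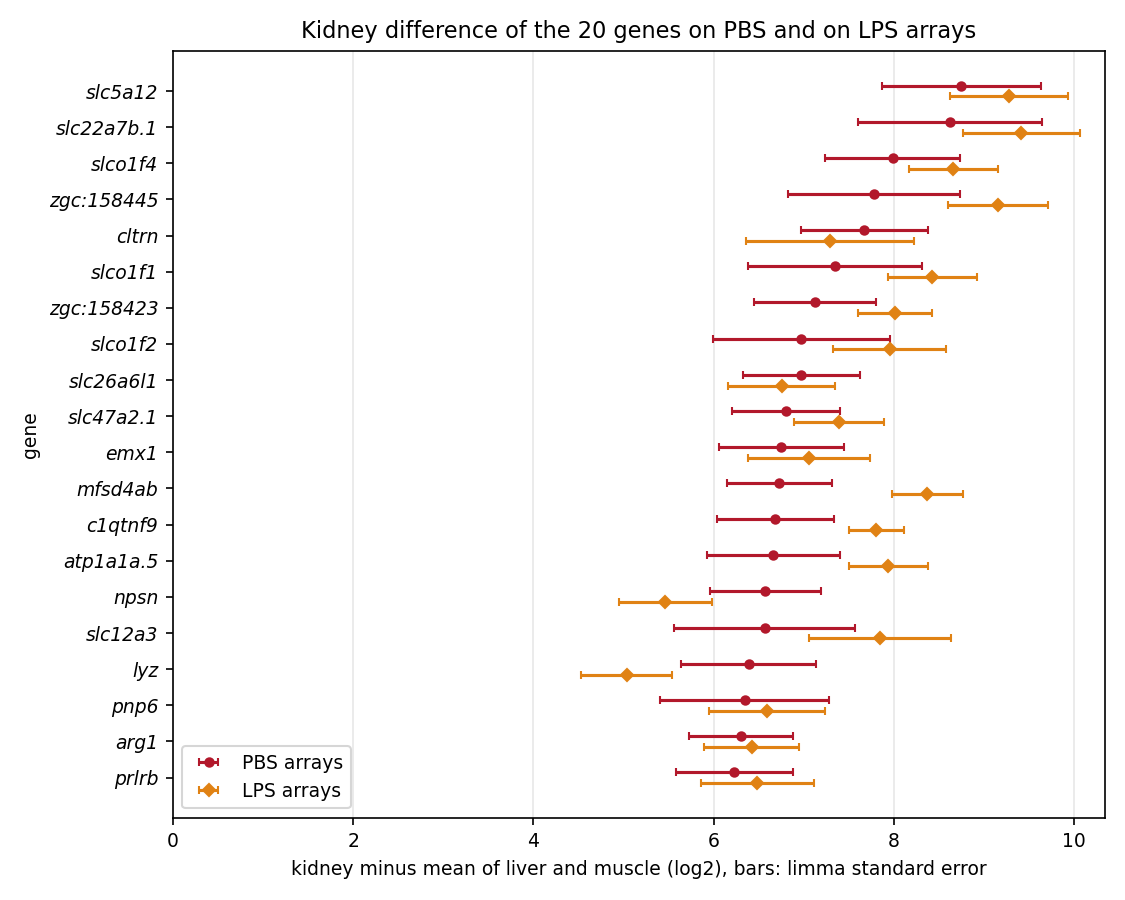
Difference between kidney and the mean of liver and muscle (x axis, log2, bars: limma standard error) for the 20 leading genes on the PBS arrays and on the LPS arrays. All 20 genes lie above 0 on both sets, with *slc5a12* at 8.75 and 9.28 and *lyz* at 6.39 and 5.03.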

How the data were processed

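Total RNA of kidney, liver and muscle, each pooled from 3 fish, was hybridised by the authors to 1-colour Agilent arrays, 4 a tissue. The deposited scanner intensity values had been background-corrected by Agilent Feature Extraction (10.7.3.1 per the file headers, 10.4.0.0 per the labels), and the deposited log2 value table holds the authors' 75th percentile shift, which was used as an alternative only. Control spots and outlier-flagged spots were left out, spots of a probe were averaged, and log2 processed intensity minus the array's 75th percentile was fitted with limma 3.58.1 in R 4.3.3 on the 12 PBS arrays, with 3 group means, eBayes and Benjamini-Hochberg adjustment. A probe was tested if its raw intensity lay between the 20th and 95th percentile on at least 1 array. A gene was read from its brightest probe on average, and 25069 of 43603 probes had a current symbol. Genome positions and promoter motifs were not analysed. The steps were tested on simulated data.

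Genes named are the 20 largest rises among genes higher than both tissues, with all kidney arrays above background and above the 8 others, the 5 largest falls among called genes with all kidney arrays below the 8 others, up to 6 called members a list, and defining members whether called or not. Other names are marked as picked after their values were seen, or come from the genes higher than both tissues and the families counted. Members and lists were chosen with earlier results of these data known. The labels do not say whether a replicate number marks the same fish in each tissue, but same-numbered samples deviated together: their deviations correlated at 0.147 to 0.714 in all 12 pairs (mean 0.42), against -0.67 to 0.66 (mean -0.14) in 36 pairs of different number. Some samples thus correlated better with another number, such as liver 1 with kidney 3. Deviations within a tissue cancel out over its replicates, so the lower mean of the other pairs follows from the first and adds no separate support. Every same-number pair exceeded 0.1, but this does not show that a number marks the same fish. Pairs of different number were also positive within replicates 1 and 3, such as liver 1 with kidney 3 (0.66). They were positive within replicates 2 and 4 too, such as liver 2 with kidney 4 (0.54), and negative otherwise. The numbers were taken as pairs in the block fit only, and its counts rest on that. The reported fit did not use this pairing, and counts with the replicate number as a block are given beside it. Differences and p-values of single genes come from the fit without the block. A gene not called there may be called with the block. P-values cover the spread between these pools. The mean signal column was not used, and normexp was run on median signal and background instead. Some genes are not reported here.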

Additional observations from a re-analysis of the deposited data

Results flagged for a closer look

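Some samples lay far from the other 3 of their group, measured as the gap to the nearest sample over the range of the group. This was seen in 9 of 220 groups of 4 tested, and chance gives about 1 in 20. Kidney replicate 3 was the low array for *arg1* (ratio 0.833), *tfap2b* (0.866), *csf3r* (0.863), *cd8a* (0.909), *rag1* (0.968) and *mcm6* (0.910), for instance at -0.73 for *arg1* with the next kidney array at 1.76. *rag1* was not above background on every kidney array, so its ratio rests in part on dim signal. The raw 75th percentile, which each level is set against, was 2358, 1060, 4814 and 1274 on kidney replicates 1 to 4. Its part in these gaps was not tested. Of the summed lists, liver replicate 4 was high in stem and progenitor genes (0.839), muscle replicate 3 was low in B cell genes (0.833), and liver replicate 1 was low in exocrine pancreas genes (0.881), at 9.37 with the next at 10.79.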

How the results depend on the processing

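Counts are given as higher than the mean, lower, higher than both tissues, higher than liver and higher than muscle, against 374, 318, 143, 355 and 441. Replicate block: 955, 1433, 384, 992 and 885. All 24 arrays in 6 groups: 888, 1206, 344, 953 and 821. Centring at the 50th percentile gave 607, 1058, 242 and 603 for the first 4, and 588 for muscle. Quantile normalisation gave 587 higher, 249 higher than both and 652 higher than liver. Normexp gave 216 higher, 170 lower and 217 higher than muscle. An adjusted p under 0.01 left 146, 112, 69, 162 and 188. Slide as a random block gave 241 higher and 177 lower, and scan day, an alternative added after the data were seen, gave 213, 148, 89 and, over muscle, 206. The slide block cannot separate slide from tissue, since no slide held PBS arrays of different tissues. Scan day as a fixed block left 86 genes higher than liver. Without kidney replicates 1 and 3, also added, 489 genes were higher, 433 lower and 237 higher than both. Leaving out 1 array at a time gave 163 to 595 higher, 135 to 1204 lower, 91 to 271 higher than both, 201 to 568 higher than liver and 245 to 659 higher than muscle. Without kidney replicate 1 the 374 became 163, without replicate 2 it became 225 and without replicate 3 it became 595. The 318 lower genes became 1204 without kidney replicate 4. Without liver replicate 3 the counts were 249 higher, 210 lower and 210 higher than liver, without liver replicate 4 the last was 229, and without kidney replicate 4, 292 genes exceeded muscle. After normexp 1 progenitor, 9 erythroid, 2 thrombocyte, 1 multiciliated and 2 glomerular genes were called higher. On the LPS arrays the range was 548 to 929. Of 147 genes covered by the naming rule, no called gene changed direction under 24 alternatives, whereas 5 of all called genes changed sign when the probes of a gene were averaged. The 20 leading genes were called higher than the mean under all 24 alternatives. The call against both tissues, by which they were chosen, was kept by 18 to 20 of them. It was kept by 18 without liver replicate 1, liver replicate 3 or kidney replicate 1. Of the 98 called among the 147, 64 kept the call in each. The cause of these shifts was not tested. The number of arrays and dim signals in liver limit precision.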
